A study of Rattus norvegicus with 6 samples.

Results

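The genes described are the 6 that encode C1q, C3 and complement receptor 3 (CR3) in the rat: C1qa, C1qb and C1qc for the C1q chains, C3, and Itgam and Itgb2 for the CR3 chains. They were taken by Ensembl identifier, because these molecules are named in the title of the study, and all 6 are among the 22976 genes of the table. RNA was measured in the rostral ventromedial medulla (RVM), a brainstem region whose descending fibres raise or lower pain transmission, in 6 poly-A sequencing libraries. The 3 CFA libraries came from rats given 50 µL of complete Freund's adjuvant (CFA, killed mycobacteria in oil, which inflames tissue) into the temporomandibular (jaw) joint of each side. The 3 saline libraries came from rats given 50 µL of saline in the same way, and both groups were taken on day 3. The sources used here give no strain, sex or age, and do not say whether each library stands for its own animal. The p-values thus reflect only how much these libraries differ, and that spread may be technical.

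Complement is a cascade of blood and tissue proteins that tag cells and particles for removal. C1q, built from A, B and C chains in equal number, starts the classical pathway when it binds a surface. The cascade then cleaves C3, a large precursor protein, and a fragment of it is fixed to the surface. CR3 is an integrin made of the alpha chain CD11b (Itgam) and the beta chain CD18 (Itgb2), and it binds a fixed C3 fragment on the surface of a cell that engulfs. In brain, C1q genes are expressed mainly by microglia and related macrophages, CR3 marks microglia and other myeloid cells, and C3 is made by reactive astrocytes and myeloid cells. In the developing mouse visual system, C1q, C3 and CR3 take part in the removal of synapses by microglia.

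All 6 genes rose in CFA, and for each of them the lowest CFA library lay above the highest saline library. The ratio of the group means was 16.4 for C3, 6.13 to 7.89 for the C1q genes, and 4.06 and 3.51 for the CR3 genes. The levels are FPKM (fragments scaled to the length of the gene and to the depth of the library). A comparison of levels between genes thus rests on the gene lengths used, whereas the ratio of the group means of a gene does not. A log2 change of FPKM + 1 does rest on them, through the added 1 FPKM. Of the 13566 genes tested, which averaged 1 FPKM or more, 11.3% were called higher in CFA at an adjusted p under 0.05 (limma, Benjamini-Hochberg), and 1.34% did so with at least a 2-fold rise on the scale of FPKM + 1. The 6 complement genes are in both classes. Their median log2 change of FPKM + 1 was 2.65, against 0.012 over all genes tested. A complete separation of the groups in that direction was common, in 21.2% of genes tested. In genes whose mean level lay within the range of the 6 complement genes, 10.5% passed as higher and 1.14% did so with at least a 2-fold rise.

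**Figure D1:**
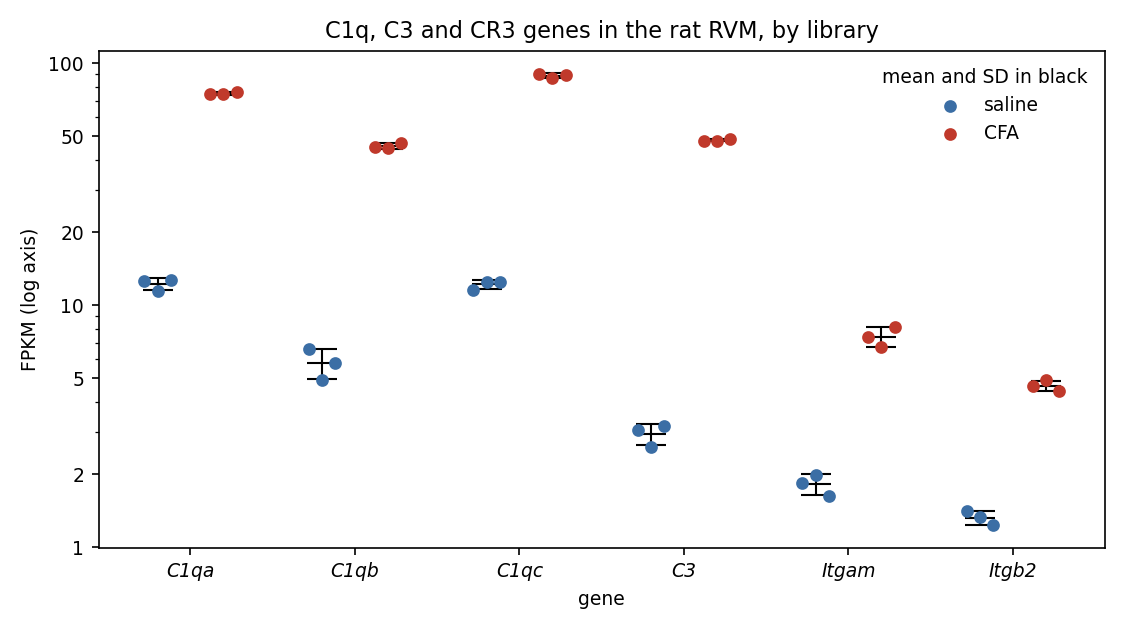
FPKM of the 6 complement genes (log axis) in each of 3 saline (blue) and 3 CFA (red) libraries, with the mean and SD of each group in black. The groups do not overlap for any of the genes, and the distance between them is widest for C3, whose means were 2.94 FPKM in saline and 48.0 FPKM in CFA.

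The table listed fragments indirectly. Values of a gene are whole multiples of what 1 fragment is worth in that library. From these steps the library totals came out as 27534174 to 44977905 fragments, and whole fragments were found for all 22976 genes. Behind the values below there were at least 181 fragments for each complement gene in each library. The identifiers carry no symbols in the table, and the reference table used here pairs no Ensembl identifiers. It holds all 6 symbols as protein-coding genes, but the pairing of identifier and symbol was taken as given. For the same reason, marker genes of microglia, blood cells and the medulla, and the other genes of the cascade, were not analysed here. In a bulk sample, more cells of a type and more RNA per cell cannot be told apart.

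C1qa, C1qb and C1qc are neighbours on rat chromosome 5, in the order C1qb, C1qc, C1qa, with no other gene between them in the RefSeq annotation of GRCr8. The promoters are shown for the complement genes with an entry in the RefSeq table, from 250 bases before to 50 bases after the start of the gene, because these genes rose together. They were searched on both strands for 6 short motifs of factors that act in myeloid or inflamed cells, or of the basal machinery. These were the ETS core bound by PU.1 (GAGGAA), a STAT site (TTCNNNGAA), an interferon response element (TTTC, NN and TTTC in a row), an NF-kB site (GGGA, N and TTTCC in a row), a C/EBP site (TTGCNNAA) and a TATA box (TATAAA). Capitals mark the matches, and a match on the other strand appears as the reverse complement.
C1qa, GRCr8 chr5:154419884-154420183, minus strand: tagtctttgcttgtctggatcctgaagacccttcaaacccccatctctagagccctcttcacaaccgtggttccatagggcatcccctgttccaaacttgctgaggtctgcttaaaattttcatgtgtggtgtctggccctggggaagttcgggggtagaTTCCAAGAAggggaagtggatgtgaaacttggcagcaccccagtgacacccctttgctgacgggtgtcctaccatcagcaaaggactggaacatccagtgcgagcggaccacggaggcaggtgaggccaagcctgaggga
C1qb, GRCr8 chr5:154407778-154408077, minus strand: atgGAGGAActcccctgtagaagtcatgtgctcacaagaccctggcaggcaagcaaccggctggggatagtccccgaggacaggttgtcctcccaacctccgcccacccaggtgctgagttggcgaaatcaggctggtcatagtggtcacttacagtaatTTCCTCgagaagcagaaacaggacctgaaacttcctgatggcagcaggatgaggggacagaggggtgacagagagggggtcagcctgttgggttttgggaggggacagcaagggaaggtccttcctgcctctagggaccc
C3, GRCr8 chr9:2201290-2201589, minus strand: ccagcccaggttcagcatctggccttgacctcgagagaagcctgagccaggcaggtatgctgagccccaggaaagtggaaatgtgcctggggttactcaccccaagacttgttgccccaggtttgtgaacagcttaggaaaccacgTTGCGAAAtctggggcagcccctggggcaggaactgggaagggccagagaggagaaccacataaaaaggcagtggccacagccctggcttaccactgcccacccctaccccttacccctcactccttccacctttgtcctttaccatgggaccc
Itgam, GRCr8 chr1:192089342-192089641, plus strand: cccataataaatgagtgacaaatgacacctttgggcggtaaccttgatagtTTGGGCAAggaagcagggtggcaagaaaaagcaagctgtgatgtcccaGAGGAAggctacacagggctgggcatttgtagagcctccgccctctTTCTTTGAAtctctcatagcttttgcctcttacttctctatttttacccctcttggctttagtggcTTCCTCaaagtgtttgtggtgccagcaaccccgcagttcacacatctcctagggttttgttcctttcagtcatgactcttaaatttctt
No match overlapped another. C1qb and Itgam each held the ETS core at 2 places, 1 on each strand. That motif is found at least 1 time in 27.6% of the 33469 rat promoters of the table, and the share with 2 places was not counted. The STAT motif was found once in C1qa and once in Itgam (8.87% of all promoters), and the C/EBP motif once in C3 and once in Itgam (10.6%). The interferon, NF-kB and TATA letters, found in 3.92%, 0.362% and 14.2% of all promoters, had no match in these 4 windows. None of the motifs was shared by all 4 promoters. A match is a description of letters and shows no binding.

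C1qa and C1qc had the highest levels of the 6 genes in both groups. C1qa (ENSRNOG00000012807), which encodes the A chain, was at 12.6, 11.5 and 12.7 FPKM in the saline libraries and at 74.9, 74.3 and 76.1 FPKM in the CFA libraries, each in order of replicate number, as throughout. The CFA libraries lay close together, and the lowest of them was 5.86 times as high as the highest saline library. Its mean rose from 12.2 ± 0.652 to 75.1 ± 0.934 FPKM (SD, n = 3 each), 6.13-fold. The limma estimate was 2.52 ± 0.0379 (SE) on the log2(FPKM + 1) scale, with an adjusted p of 1.35e-08.

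C1qb (ENSRNOG00000012804), which encodes the B chain, was lower than the other chains throughout. It was at 6.57, 4.93 and 5.80 FPKM in saline and at 44.9, 44.8 and 46.8 FPKM in CFA. Saline replicate 2 was the lowest of the saline libraries and the spread in saline, 14.3% of the mean, was the widest of the 6 genes in either group. The mean went from 5.77 ± 0.823 to 45.5 ± 1.14 FPKM (SD, n = 3 each), 7.89-fold, and limma put the log2 change of FPKM + 1 at 2.79 ± 0.0799 (SE, adjusted p = 2.85e-07). From the lowest CFA over the highest saline library to the highest over the lowest, the ratio ran from 6.81 to 9.50.

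C1qc (ENSRNOG00000012749), which encodes the C chain, was at 11.6, 12.5 and 12.5 FPKM in saline and at 90.4, 86.5 and 89.4 FPKM in CFA. Its saline range overlapped that of C1qa, and in FPKM it was above C1qa in all 3 CFA libraries. Its mean rose 7.28-fold, from 12.2 ± 0.508 to 88.8 ± 2.00 FPKM (SD, n = 3 each). By limma this was 2.77 ± 0.0345 (SE) in log2(FPKM + 1), at an adjusted p of 5.97e-09. Summed, the C1q genes made up 0.00704% ± 0.000272 of the FPKM of a saline library and 0.0488% ± 0.000874 of that of a CFA library (SD, n = 3 each).

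C3 (ENSRNOG00000046834), the component on which the pathways of the cascade converge, had the largest ratio of means. It was at 3.05, 2.61 and 3.16 FPKM in saline and at 47.7, 47.8 and 48.6 FPKM in CFA. In FPKM, all saline values were below those of any C1q gene, whereas in CFA every library had C3 above C1qb. In fragments, C3 had 718, 470 and 632 in saline and 9564, 6887 and 8216 in CFA, more than any other of the 6 genes in CFA, and its gene model, at 5237 bp, is the longest of them. Its mean rose 16.4-fold, from 2.94 ± 0.292 to 48.0 ± 0.471 FPKM (SD, n = 3 each), and the limma estimate in log2(FPKM + 1) was 3.64 ± 0.0551 (SE, adjusted p = 1.35e-08). The pseudocount of 1 FPKM narrows the change of a gene this low in saline, and the log2 ratio of the means without it was 4.03. Of 13566 genes tested, 3 rose more than C3 on the log2(FPKM + 1) scale.

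Both CR3 genes were lower than C1q and C3 in every library, and had the smallest ratios of means. Itgam (ENSRNOG00000019728), the alpha chain CD11b that binds the C3 fragment, was at 1.85, 1.99 and 1.63 FPKM in saline and at 7.41, 6.72 and 8.10 FPKM in CFA. Relative to the mean, its CFA libraries were spread more widely than those of the other 5 genes, with replicate 2 lowest and replicate 3 highest, and all lay at least 3.38 times as high as the highest saline library. The mean rose 4.06-fold, from 1.82 ± 0.181 to 7.41 ± 0.693 FPKM (SD, n = 3 each), or 1.57 ± 0.0793 (SE) in log2(FPKM + 1), at an adjusted p of 7.66e-06 by limma. In the RefSeq annotation the next gene is Itgax, the alpha chain of a related receptor, and the sources used here do not say how fragments that match related genes were counted.

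Itgb2 (ENSRNOG00000001224), the beta chain CD18 that CR3 shares with other integrins of white blood cells, was at 1.42, 1.33 and 1.23 FPKM in saline. In CFA it was at 4.65, 4.89 and 4.42 FPKM, and the order of the libraries differed from that of Itgam, with replicate 2 highest and replicate 3 lowest. Its mean rose 3.51-fold, from 1.33 ± 0.0905 to 4.65 ± 0.236 FPKM (SD, n = 3 each). Limma gave 1.28 ± 0.0652 (SE) in log2(FPKM + 1), with an adjusted p of 7.98e-06, and the log2 ratio of the means without the pseudocount was 1.81. In the RefSeq annotation, which is of another build than the values, the span of Itgb2 overlaps that of 1 other gene, LOC120099012. Whether they share exons was not examined and no strand rule is stated, so fragments of that gene may be counted for Itgb2. The spans of the other 5 complement genes overlap none.

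**Figure D2:**
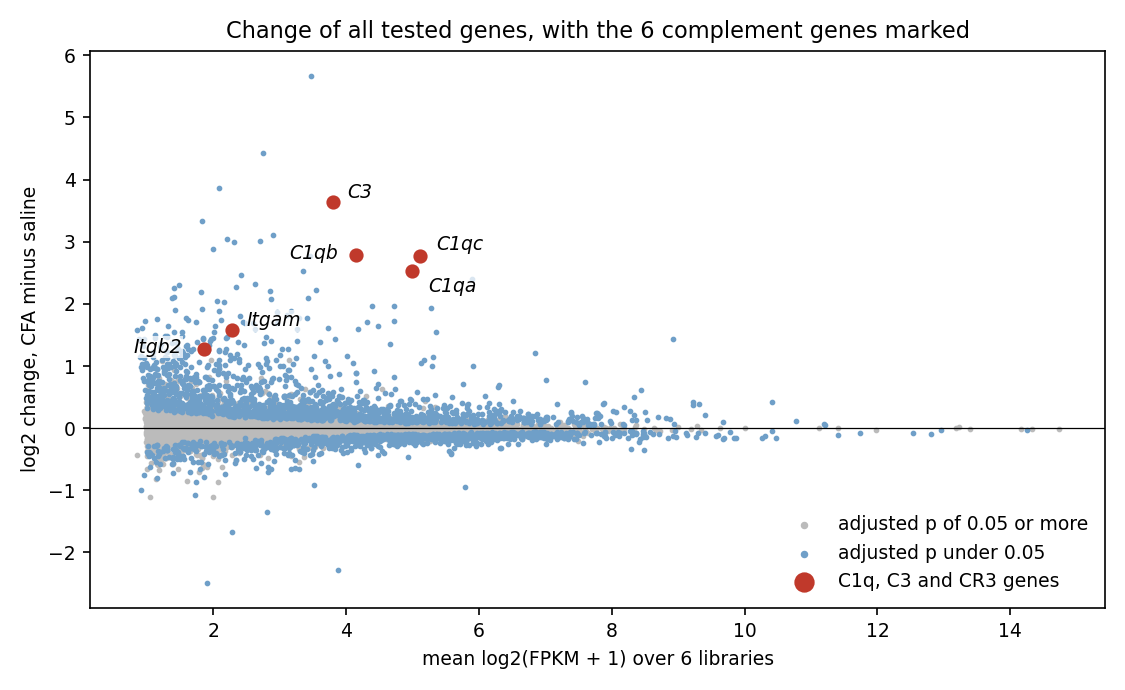
Change of each of 13566 tested genes (log2 of FPKM + 1, CFA minus saline) against its mean level over the 6 libraries, with genes past an adjusted p of 0.05 in blue, other genes in grey and the 6 complement genes in red. C3 lies at 3.64, the C1q genes at 2.52 to 2.79, Itgam at 1.57 and Itgb2 at 1.28.

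Placed among all genes, C1qb ranked 11, C1qc 13 and C1qa 15 by size of rise on the log2(FPKM + 1) scale, Itgam 64 and Itgb2 105, and C3 ranked 4. With voom on fragments, which uses no pseudocount of 1 FPKM, C3 ranked 15, C1qb 30, C1qc 32, C1qa 46, Itgam 93 and Itgb2 128. By level, C1qa went from percentile 79.0 to percentile 97.2 of the 22976 listed genes and C1qc from 78.9 to 97.9. C1qb went from percentile 65.6 to 94.7 and C3 from 54.7 to 95.1. The CR3 genes ended lower, Itgam going from percentile 48.4 to 69.4 and Itgb2 from 44.8 to 61.0. The share of all 6 genes in the FPKM of a library was 0.00866%, 0.00811% and 0.00862% in the saline libraries and 0.0629%, 0.0616% and 0.0637% in the CFA libraries.

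The order of levels in FPKM differed between the groups. In saline it was C1qa and C1qc, whose ranges overlapped, then C1qb, C3, Itgam and Itgb2, with no overlap between neighbours from C1qc down. In CFA it was C1qc, C1qa, C3, C1qb, Itgam and Itgb2, and no neighbours overlapped. The narrowest gap was between C3, lowest at 47.7 FPKM, and C1qb, highest at 46.8 FPKM. Such an order rests on the gene lengths used. In fragments, C1qa was above C1qc in every CFA library, at 5624, 4012 and 4824 against 3762, 2592 and 3143.

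Whether the genes rose unequally was examined with 6 ratios between pairs, each taken within a library, where the scaling of the library cancels. Exact two-sided permutation of the 6 libraries can give no p below 0.1 here, so none of the ratios could pass 0.05. The ratio of C3 to C1qb was 0.464, 0.529 and 0.544 in saline and 1.06, 1.07 and 1.04 in CFA, a 2.07-fold shift (exact permutation p = 0.1, 0.15 adjusted over the 6 pairs). C3 was thus below C1qb in every saline library and above it in every CFA library. The ratio of C3 to Itgam was 1.65, 1.31 and 1.94 in saline and 6.45, 7.11 and 5.99 in CFA, a 4.04-fold shift (exact permutation p = 0.1, 0.15 adjusted). Itgam to C1qb was 0.282, 0.404 and 0.281 in saline and 0.165, 0.150 and 0.173 in CFA, with a change of -0.97 on the log2 scale (exact permutation p = 0.1, 0.15 adjusted). The groups did not overlap in these 3 ratios, but how often they separate in ratios of other gene pairs was not examined. C3 to Itgam equals C3 to C1qb divided by Itgam to C1qb, so the 3 ratios are not separate results.

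Within C1q, the ratio of C1qa to C1qb was 1.91, 2.33 and 2.18 in saline and 1.67, 1.66 and 1.63 in CFA. Its groups did not overlap, and the log2 change was -0.37 (exact permutation p = 0.1, 0.15 adjusted over the 6 pairs). The ratio of C1qc to C1qb was 1.77, 2.54 and 2.15 in saline and 2.01, 1.93 and 1.91 in CFA, so the CFA libraries lay inside the range of the saline libraries (log2 change -0.13, exact permutation p = 0.6 before and after adjustment). That small change was 0.0012 without saline replicate 2 and -0.26 without saline replicate 1. Within CR3, Itgam to Itgb2 was 1.31, 1.49 and 1.32 in saline and 1.59, 1.37 and 1.83 in CFA. These groups overlapped, and the log2 change was 0.21 (exact permutation p = 0.2, 0.24 adjusted). It was 0.11 without CFA replicate 3 and 0.32 without CFA replicate 2.

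**Figure D3:**
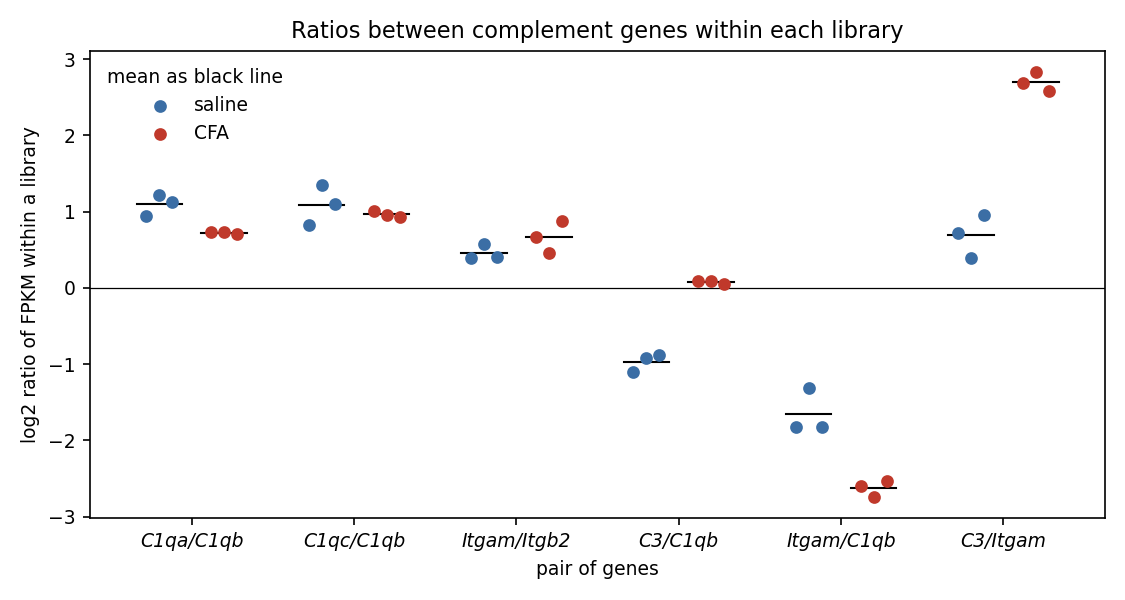
Log2 ratio of FPKM between 2 complement genes within each library, for 6 pairs, in saline (blue) and CFA (red), with the mean of 3 libraries as a black line. The groups are apart for C1qa/C1qb, C3/C1qb, Itgam/C1qb and C3/Itgam, and overlap for C1qc/C1qb and Itgam/Itgb2.

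Libraries of the CFA group were close for most of these genes. In CFA the coefficient of variation was 0.982% for C3, 1.24% for C1qa, 2.26% for C1qc, 2.51% for C1qb and 5.06% for Itgb2. Counting of fragments alone would give 1.11%, 1.45%, 1.79%, 2.07% and 4.13%. The CFA libraries of C3 and C1qa therefore differed by less than counting alone gives on average. Itgam stood apart in CFA, at 9.35% against 3.10% from counting, and its variance was 8.37 times counting noise. In saline the variance was 7.22 times counting noise for C1qb, 5.46 times for C3, 2.87 times for Itgam and 2.46 times for C1qa. For C1qc it was 0.962 times and for Itgb2 1.00 times counting noise. Over the genes tested that had at least 5 expected fragments a library, the median was 2.03 in saline and 1.97 in CFA. Of these genes, 91.4% lay below C1qb in saline and 93.9% below Itgam in CFA. Over all listed genes with at least 5 expected fragments in both libraries, pairs within a group had a mean variance of 2.88 to 3.10 times counting noise. None was thus a copy of another, and all 6 were kept. Counting noise here takes each fragment as an independent draw.

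**Figure D4:**
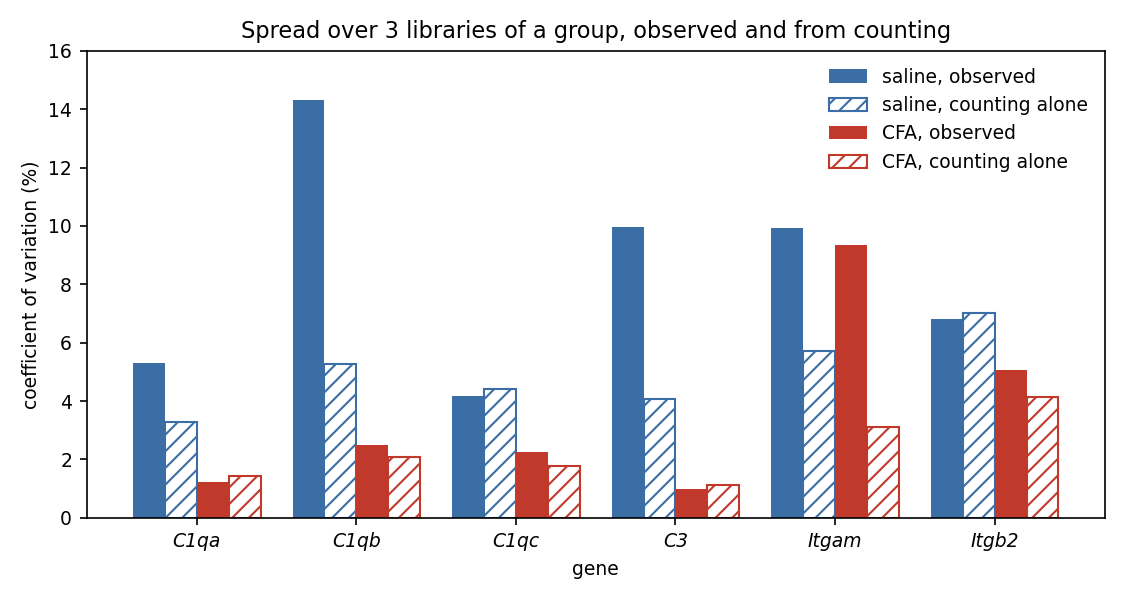
Coefficient of variation of FPKM over the 3 libraries of a group (filled bars) and the value that counting of fragments alone would give (hatched bars), for the 6 complement genes in saline (blue) and CFA (red). The filled bars exceed the hatched bars most for C1qb in saline, 14.3% against 5.26%, and for Itgam in CFA, 9.35% against 3.10%.

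Among all genes tested, the one whose log2(FPKM + 1) values followed the mean of C1qa, C1qb and C1qc most closely over the 6 libraries was C3 itself, followed by ENSRNOG00000002919, which has no symbol here. That gene went from 294.6 ± 4.47 to 796.4 ± 5.13 FPKM (SD, n = 3 each), which limma put at 1.43 ± 0.0132 (SE) in log2(FPKM + 1), at an adjusted p of 1.63e-09. Itgb2 ranked 105 and Itgam 191 by this likeness. The ranking rests on Pearson's coefficient, which was 0.99991 for C3, 0.9999 for ENSRNOG00000002919, 0.9963 for Itgb2 and 0.99291 for Itgam. C3 and the gene after it were thus nearly tied. Since the libraries form 2 separate groups, the ranking mostly orders genes by how far the groups stand apart against their spread.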

How the data were processed

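The authors deposited FPKM values in 1 table, with 1 column per library and no unused column. The build mRatBN7.2 and the tools HISAT2 2, StringTie 2, fastp 0.21.0 and DESeq2 1.30.1 are named in the submitters' processing notes, without their roles. No counter, annotation release, strand rule or gene filter is stated in the sources used here. Groups and replicate numbers came from the titles.

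The 13566 genes averaging 1 FPKM or more were tested with limma 3.58.1 in R 4.3.3 on log2(FPKM + 1), CFA against saline over all 6 libraries, with a mean-variance trend, two-sided and Benjamini-Hochberg adjusted over all genes tested (4 residual degrees of freedom). The 6 genes were read from that fit. Fragments were worked out from the steps of FPKM values. Both steps were first tested on simulated data. Ratios between genes were tested by exact permutation. The rest was done in Python 3.11.15 with pandas 2.3.3, numpy 2.4.6 and matplotlib 3.10.9. The genes, lists and tests were chosen with earlier results of these data known. Named genes were the 6, plus those most like the C1q mean (at most 2 identifiers). A list of 50 other complement genes and the cell type markers had also been set, but 0 of the 22976 identifiers matched the reference table, so these were not analysed here. Alternatives covered pseudocount, filter, scaling, variance trend, voom on fragments, the replicate block and leaving out each library.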

Additional observations from a re-analysis of the deposited data

How the results depend on the processing

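Each of the 6 complement genes stayed higher in CFA with an adjusted p under 0.05 (limma) in every alternative in which it was tested, 17 for C1qa, C1qb, C1qc and C3 and 16 for Itgam and Itgb2, which a mean of at least 5 FPKM leaves out. That filter takes the mean over all 6 libraries, and C3, at 2.94 FPKM in saline, passes it only through its CFA libraries. That alternative thus adds no support for the rise of C3. The log2 change ran from 2.48 to 2.62 for C1qa, 2.70 to 2.99 for C1qb, 2.74 to 2.87 for C1qc and 3.58 to 4.03 for C3, and from 1.51 to 2.03 for Itgam and 1.20 to 1.80 for Itgb2, whose low saline values make the pseudocount matter most. The largest adjusted p was 0.000358, for Itgam with the replicate block. Leaving out each library gave 3.58 to 3.68 for C3 and 1.51 to 1.63 for Itgam. The count of genes called, 2545, was 1758 to 1997 with a library left out and up to 3479 with voom. The 1015 genes called lower became 666 without a variance trend, 600 without saline replicate 1 and 635 without saline replicate 3. Quantile scaling called 1195 higher and 1393 lower, and the median ratio 1363 and 1315. With the replicate block 2086 genes were called. Deviations from the group means were not shared by libraries of equal number (r of -0.021 to 0.023 across genes), so the numbers were not taken as pairs. Of the 6 ratios, 5 kept their direction in all 8 alternatives, and C1qc to C1qb, -0.13, ran from -0.26 to 0.0012 with a library left out, turning without saline replicate 2. The replicate block leaves the change of a ratio unaltered by design, so no direction could turn there. The alternatives for the list of other complement genes were not run, since no identifier was matched to a symbol.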
